A study of Homo sapiens with 12 samples.

Results

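Aminoacyl-tRNA synthetases are the enzymes that load each tRNA with its amino acid. Their transcripts were followed in MG63 cells, an established human osteosarcoma line, through 36 genes picked by name from the 50868 genes of the count table: 20 genes of cytosolic enzymes and 16 of mitochondrial enzymes, whose names end in 2. The study treated the cells with the small molecule anticarin-β or targeted CCT4 (part of the ring-shaped CCT chaperonin, which helps tubulin and actin to fold) with siRNA, and sequenced the RNA of whole cultures. The 12 libraries form 4 groups of 3. Cells given 1 µM anticarin-β were set against cells given vehicle, both collected after 18 hours. Cells transfected with siRNA against CCT4 were set against cells transfected with Allstar control siRNA, both collected after 2 days. Nothing in the labels says that the libraries of a group came from separate cultures, so p-values measure the spread between these libraries.

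As background, human cells run protein synthesis in the cytosol and in mitochondria with largely separate sets of synthetases, all encoded in the nucleus. Most amino acids have a gene for each compartment, while GARS and KARS each give enzyme to both, and the bifunctional cytosolic EPRS charges glutamate and proline tRNAs that EARS2 and PARS2 serve in mitochondria. The enzymes fall into class I and class II by the fold of the catalytic domain, and several cytosolic ones sit in a multi-synthetase complex held by scaffold proteins. Many cytosolic synthetase genes are known targets of ATF4, the transcription factor of the amino acid and unfolded protein response.

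The libraries held between 13393750 and 17492095 counts, and all 36 genes had counts in every library, the lowest being 11 for PARS2, so all of them passed the filter on low counts together with the rest of the 17717 genes tested. Levels are given as CPM scaled by TMM (scaled CPM), and changes as log2 fold changes ± SE from edgeR's quasi-likelihood test, with adjusted p from the Benjamini-Hochberg method over all genes tested and a call at an adjusted p under 0.05. The mesenchymal markers COL1A1, COL1A2, SPARC, RUNX2 and VIM were present in every library. Of the markers of other cell types, HBB had no count, EPCAM and CDH1 stayed at or below 0.269 unscaled CPM, and PTPRC and PECAM1 reached 1.72 and 15.5 unscaled CPM. RUNX2 averaged 3.74 scaled CPM with control siRNA and 4.48 with CCT4 siRNA, below PECAM1 at 12.9 and 12.7. With vehicle and anticarin-β, RUNX2 averaged 4.66 and 18.1, and PECAM1 4.52 and 2.20. COL1A1 averaged 3777 scaled CPM with vehicle and 533 with control siRNA. Since whole cultures were sequenced, fewer cells and less RNA per cell cannot be told apart, and every change is relative to the rest of the transcriptome.

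With anticarin-β, the cytosolic synthetases split evenly and the mitochondrial ones fell more often than they rose. Of the 20 cytosolic genes 9 rose, 9 fell and 2 were not called, with a median log2 fold change of -0.03. Of the 16 mitochondrial genes 4 rose, 9 fell and 3 were not called, with a median of -1.04. The compound changed most of the transcriptome: 73.0% of all genes tested were called, 34.9% higher and 38.0% lower, with a median of -0.06. A call by itself therefore sets these genes apart little. Falls of over 2-fold were called for 8 of 16 mitochondrial and 3 of 20 cytosolic genes, against 24.8% of all genes, and falls of over 4-fold for 3 mitochondrial and 2 cytosolic genes, against 11.0% of all genes. The cytosolic count of 3 rests on a cut close to FARSA, LARS and EPRS, and became 6 without vehicle library 2, 5 without vehicle library 3, 6 with upper-quartile scaling, 8 with library totals alone and 5 with no low-count filter, while the mitochondrial count was 8 or 9 in every alternative run. The 3 mitochondrial falls of over 4-fold became 5 with library totals alone. Rises of over 2-fold were called for 1 mitochondrial and 3 cytosolic genes, against 20.9% of all genes. The levels of the treated and vehicle libraries did not overlap for 18 of 20 cytosolic and 14 of 16 mitochondrial genes, against 74.6% of all genes. Scaling by library totals alone moved the median of all genes to -0.48 and the calls to 4292 higher and 8959 lower, against 6186 higher and 6740 lower. That scaling left 5 cytosolic genes called higher and 12 lower, and turned AARS, IARS, KARS, NARS and the mitochondrial LARS2 negative. IARS (adjusted p = 0.0045) and KARS (adjusted p = 0.0032) were then called lower, while AARS, NARS and LARS2 were not called.

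**Figure D1:**
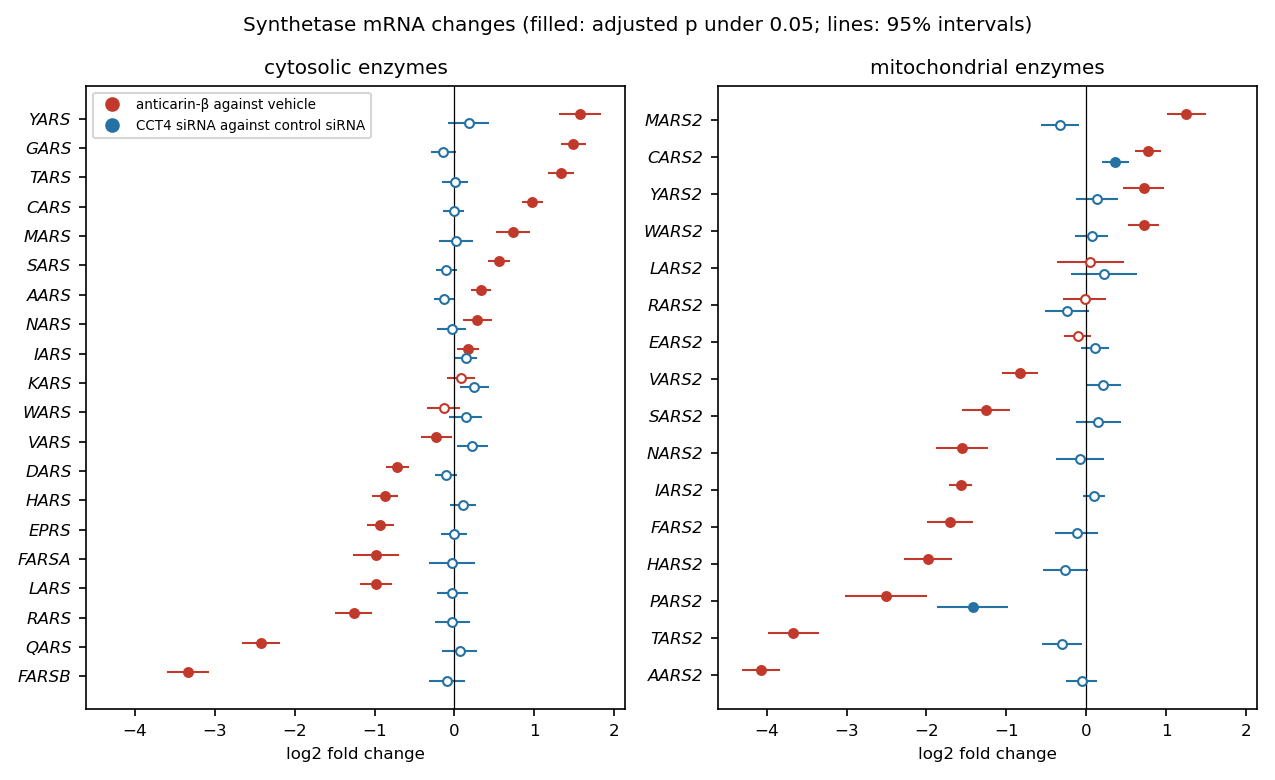
Log2 fold changes (x axis) of the 20 cytosolic genes (left) and the 16 mitochondrial genes (right) with anticarin-β against vehicle (red) and CCT4 siRNA against control siRNA (blue). Filled points have an adjusted p under 0.05, open points do not, and lines are 95% intervals. The red points run from -3.34 to 1.57 on the left and from -4.07 to 1.25 on the right, while the blue points lie between -0.33 and 0.37 except for PARS2 at -1.42. AARS, IARS, KARS, NARS and LARS2 turn negative for anticarin-β with scaling by library totals alone, where IARS and KARS are called lower.

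The largest rises among the cytosolic enzymes belonged to the tyrosine, glycine, threonine and cysteine enzymes. YARS (chr1:32775237-32818153, minus strand, hg38) had 381, 364 and 374 scaled CPM with anticarin-β, against 150.1, 115 and 111 with vehicle. The groups stood far apart, and the log2 fold change was 1.57 ± 0.12 (adjusted p = 1.02e-07, 2.97-fold). Exons of YARS overlap those of S100PBP on the opposite strand over 396 bases. S100PBP held counts equal to 19.1% of those of YARS, and its part in the rise was not tested. GARS (chr7:30594681-30634033, plus strand), which gives the glycine enzyme to both compartments, had 385, 415 and 414 scaled CPM with anticarin-β, against 141, 149.9 and 142 with vehicle. Every treated library lay above every vehicle library, and the gene rose 2.80-fold (1.49 ± 0.07, adjusted p = 1.44e-09). TARS (chr5:33440696-33469539, plus strand), the threonine enzyme, had 442, 469 and 520.02 scaled CPM with anticarin-β, against 206, 179.6 and 183 with vehicle. It too showed no overlap, at 1.33 ± 0.07 (adjusted p = 5.18e-09, 2.52-fold). CARS, the cysteine enzyme, had 199.5, 201 and 196 scaled CPM with anticarin-β, against 95.6, 104 and 103 with vehicle, and rose 1.97-fold (0.98 ± 0.06, adjusted p = 9.45e-09).

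Smaller rises were called for the methionine enzyme MARS (0.73 ± 0.10), the serine enzyme SARS (0.56 ± 0.06), the alanine enzyme AARS (0.34 ± 0.06) and the asparagine enzyme NARS (0.29 ± 0.08). The call of SARS was lost with library totals alone (0.14, adjusted p = 0.0529) and that of NARS with upper-quartile scaling (0.17, adjusted p = 0.0666). IARS, the isoleucine enzyme, was called at 0.17 ± 0.06 (adjusted p = 0.0301), and the call was lost without anticarin-β library 2 or 3, CCT4 siRNA library 2, or vehicle library 2 or 3, with an adjusted p up to 0.199. It was also lost with each experiment alone, no low-count filter, the replicate block and upper-quartile scaling (adjusted p up to 0.442). In the GENCODE annotation, exons of MARS overlap those of DDIT3 and ARHGAP9 on the opposite strand, and the overlapping genes held counts equal to 24.0% of those of MARS. DDIT3 itself rose by 1.58 ± 0.22. The library kit keeps the strand, but no source used here gives the counting's strand setting, and reads of the overlapping stretches cannot be assigned with certainty. The share of the MARS rise that this could carry was not tested.

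The promoters of the genes that rose were read for the core of the composite element that ATF4 binds, TGATGNAA on either strand, because the cytosolic synthetases are known ATF4 targets. RefSeq promoters of GRCh38.p14, from 250 bases before to 50 bases after the annotated start, were at hand for 30 of the 36 genes. None was at hand for YARS, DARS, LARS, VARS, AARS2 and VARS2, so the shares below leave these genes out. The motif lay in 6 of the 8 promoters of cytosolic genes called higher, in 0 of the 6 of cytosolic genes called lower, and in 0 of the 2 of those not called. Among mitochondrial genes 1 of 14 held it, YARS2, which was called higher. Over all 34943 promoters the share was 3.62%. AARS, IARS and NARS, which are among the 6, turned direction with scaling by library totals alone, as did KARS and LARS2, whose promoters held no match. The stretches around the motif follow on the gene's own strand, with the match in capitals (TTGCATCA is TGATGCAA read on the other strand).
AARS, chr16:70289675-70289704, minus strand: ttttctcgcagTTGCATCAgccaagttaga
CARS, chr11:3057407-3057436, minus strand: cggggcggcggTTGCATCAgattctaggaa
IARS, chr9:92293692-92293721, minus strand: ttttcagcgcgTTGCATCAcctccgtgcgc
MARS, chr12:57488053-57488082, plus strand: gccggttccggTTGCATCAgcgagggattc
NARS, chr18:57621804-57621833, minus strand: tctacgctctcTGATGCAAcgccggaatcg
TARS, chr5:33440956-33440985, plus strand: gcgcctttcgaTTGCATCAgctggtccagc
YARS2, chr12:32756076-32756105, minus strand: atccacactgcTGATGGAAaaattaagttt

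All 6 cytosolic matches read TGATGCAA, while that of YARS2 reads TGATGGAA. Counted from the annotated start, with the first transcribed base as 1, the match began at position -13 in IARS, -4 in MARS, -2 in CARS, 3 in TARS and 15 in NARS. In AARS and YARS2 it began farther upstream, at -187 and -197. The promoters of GARS and SARS, which also rose, held no match in this window. Of the other motifs searched, the NRF1 palindrome lay in 3 of 16 cytosolic and 3 of 14 mitochondrial promoters, against 5.74% of all promoters, the ETS site CCGGAAGT in 4 of 16 and 3 of 14, against 4.11%, and the CCAAT box in 7 of 16 and 9 of 14, against 34.6%. By call, the CCAAT box lay in 5 of 8 cytosolic genes called higher and 1 of 6 called lower, and in 3 of 4 mitochondrial genes called higher and 4 of 7 called lower. Among the cytosolic genes, both the NRF1 palindrome and the ETS site lay in 2 of 8 called higher and 1 of 6 called lower. These matches describe letters in a window, and the calls were known when the motifs were chosen.

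The largest falls among the cytosolic genes were those of FARSB and QARS. FARSB (chr2:222570536-222656337, minus strand) encodes the beta subunit of the phenylalanine enzyme. It had 9.56, 7.76 and 8.70 scaled CPM with anticarin-β, against 102, 82.8 and 78.4 with vehicle, so that every treated library lay far below every vehicle library. The gene was 10.1-fold lower (-3.34 ± 0.12, adjusted p = 1.21e-10). QARS (chr3:49095932-49105135, minus strand), the glutamine enzyme, had 9.98, 13.1 and 10.9 scaled CPM with anticarin-β, against 54.5, 66.5 and 61.1 with vehicle, without overlap. It was 5.36-fold lower (-2.42 ± 0.11, adjusted p = 8.66e-10).

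RARS and LARS, the arginine and leucine enzymes, followed. RARS had 42.4, 41.2 and 50.1 scaled CPM with anticarin-β, against 116, 114 and 91.5 with vehicle (-1.26 ± 0.10, adjusted p = 2.04e-07). LARS had 89.3, 89.6 and 88.0 scaled CPM with anticarin-β, against 201, 159 and 168 with vehicle (-0.98 ± 0.09, adjusted p = 6.50e-07). In both genes the groups were apart. EPRS (-0.93 ± 0.08), the histidine enzyme HARS (-0.87 ± 0.08) and the aspartate enzyme DARS (-0.72 ± 0.07) also fell. The valine enzyme VARS was called at -0.23 ± 0.09 (adjusted p = 0.0354), a call lost without anticarin-β library 2 or 3 or vehicle library 1, with an adjusted p up to 0.132. It was also lost with DESeq2 (adjusted p = 0.141), RLE scaling (0.115) and each experiment alone (0.0744). Of the 8 enzymes of the multi-synthetase complex, 5 fell (DARS, EPRS, LARS, QARS and RARS), 2 rose (IARS and MARS) and KARS was not called, with a median of -0.82. Over all genes tested 34.9% were called higher and 38.0% lower. IARS and KARS turn negative with scaling by library totals alone and are called lower there.

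FARSA and FARSB encode the alpha and beta subunits of one enzyme, which works as a tetramer of both. FARSA had 85.3, 79.4 and 83.9 scaled CPM with anticarin-β, against 186, 158 and 146 with vehicle, and fell 1.97-fold (-0.98 ± 0.13, adjusted p = 2.44e-05). Since FARSB fell further, the ratio of FARSA to FARSB per transcript length (TPM) was 12.3, 14.2 and 13.3 with anticarin-β, against 2.53, 2.64 and 2.58 with vehicle. In the libraries labelled CCT4 siRNA that ratio averaged 3.34 ± 0.70, against 3.17 ± 0.36 with control siRNA (SD, n = 3 each), with overlapping ranges.

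KARS, the lysine enzyme of both compartments, had 88.0, 80.2 and 91.0 scaled CPM with anticarin-β, against 86.9, 82.5 and 75.0 with vehicle. The groups overlapped, and the 95% interval of the log2 fold change ran from -0.09 to 0.26 (adjusted p = 0.366). WARS, the tryptophan enzyme, was not called either (-0.14, interval -0.35 to 0.08), though edgeR called it lower without vehicle library 2 (adjusted p = 0.0391), with upper-quartile scaling (-0.25, adjusted p = 0.0300) and with library totals alone (-0.55, adjusted p = 0.000219). Exons of KARS and HARS overlap genes on the opposite strand, TERF2IP for KARS and WDR55 and HARS2 for HARS, whose counts equal 64.6% and 118% of theirs, with the same limit as for MARS.

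Among the mitochondrial enzymes, the alanine, threonine, proline and histidine genes fell the most. AARS2 (chr6:44299654-44313326, minus strand) had 8.72, 6.56 and 7.28 scaled CPM with anticarin-β, against 139.8, 118 and 122 with vehicle. The treated libraries lay far below, and at 16.8-fold lower (-4.07 ± 0.11, adjusted p = 1.36e-11) this was the lowest log2 fold change of the 36 genes. TARS2 (chr1:150487364-150507609, plus strand) had 2.01, 2.59 and 2.51 scaled CPM with anticarin-β, against 31.0, 33.9 and 25.6 with vehicle. It was 12.7-fold lower, again without overlap (-3.67 ± 0.15, adjusted p = 2.98e-10).

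PARS2 (chr1:54756898-54764514, minus strand), the least abundant per length in vehicle cells at 10.4 TPM, had 1.09, 1.66 and 0.92 scaled CPM with anticarin-β, against 6.18, 7.36 and 7.27 with vehicle. The groups were apart and the gene was 5.67-fold lower (-2.50 ± 0.24, adjusted p = 7.45e-07). HARS2 (chr5:140691426-140699318, plus strand) had 9.56, 11.7 and 11.0 scaled CPM with anticarin-β, against 46.4, 46.8 and 34.2 with vehicle, without overlap (3.95-fold lower, -1.98 ± 0.14, adjusted p = 4.08e-08). HARS2 starts 436 bases from the start of HARS, head to head, and exons of the pair overlap over 437 bases. A stretch of 152 bases also overlaps ZMAT2 on the same strand, so part of the HARS2 reads could not be assigned with certainty. The phenylalanine enzyme FARS2 (-1.70 ± 0.13), the isoleucine enzyme IARS2 (-1.57 ± 0.07), the asparagine enzyme NARS2 (-1.55 ± 0.15), the serine enzyme SARS2 (-1.26 ± 0.14) and the valine enzyme VARS2 (-0.82 ± 0.10) also fell. SARS2 overlaps MRPS12 on the opposite strand, a gene with counts equal to 278% of its own, and VARS2 overlaps GTF2H4 on its own strand (34.6%), so the reads of these genes are uncertain in the overlapping stretches.

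The mitochondrial genes that rose were those of the methionine, cysteine, tyrosine and tryptophan enzymes. MARS2 (chr2:197705369-197708387, plus strand), a gene of a single exon, had 31.6, 30.1 and 26.1 scaled CPM with anticarin-β, against 13.7, 10.9 and 12.2 with vehicle. The treated libraries were all higher, by 2.38-fold (1.25 ± 0.11, adjusted p = 4.67e-07). CARS2 had 103, 102 and 103 scaled CPM with anticarin-β, against 59.2, 63.0 and 58.4 with vehicle (0.77 ± 0.08, adjusted p = 1.09e-06). YARS2 had 64.0, 56.3 and 68.3 scaled CPM with anticarin-β, against 45.3, 31.9 and 36.9 with vehicle (0.72 ± 0.12, adjusted p = 0.000114). WARS2 had 40.6, 39.2 and 46.3 scaled CPM with anticarin-β, against 25.9, 24.7 and 25.9 with vehicle (0.72 ± 0.09, adjusted p = 1.06e-05). In each of these genes the groups were apart. The glutamate enzyme EARS2 (-0.11, interval -0.28 to 0.06), the arginine enzyme RARS2 (-0.02, interval -0.29 to 0.25) and the leucine enzyme LARS2 (0.05, interval -0.37 to 0.47) were not called. EARS2 was called lower with upper-quartile scaling (-0.22, adjusted p = 0.0220) and with library totals alone (-0.53, adjusted p = 6.64e-05), and RARS2 with library totals alone (-0.43, adjusted p = 0.0057). On the opposite strand, EARS2 overlaps UBFD1, with counts equal to 476% of its own, and WARS2 overlaps AL359915.2 (48.8%).

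**Figure D2:**
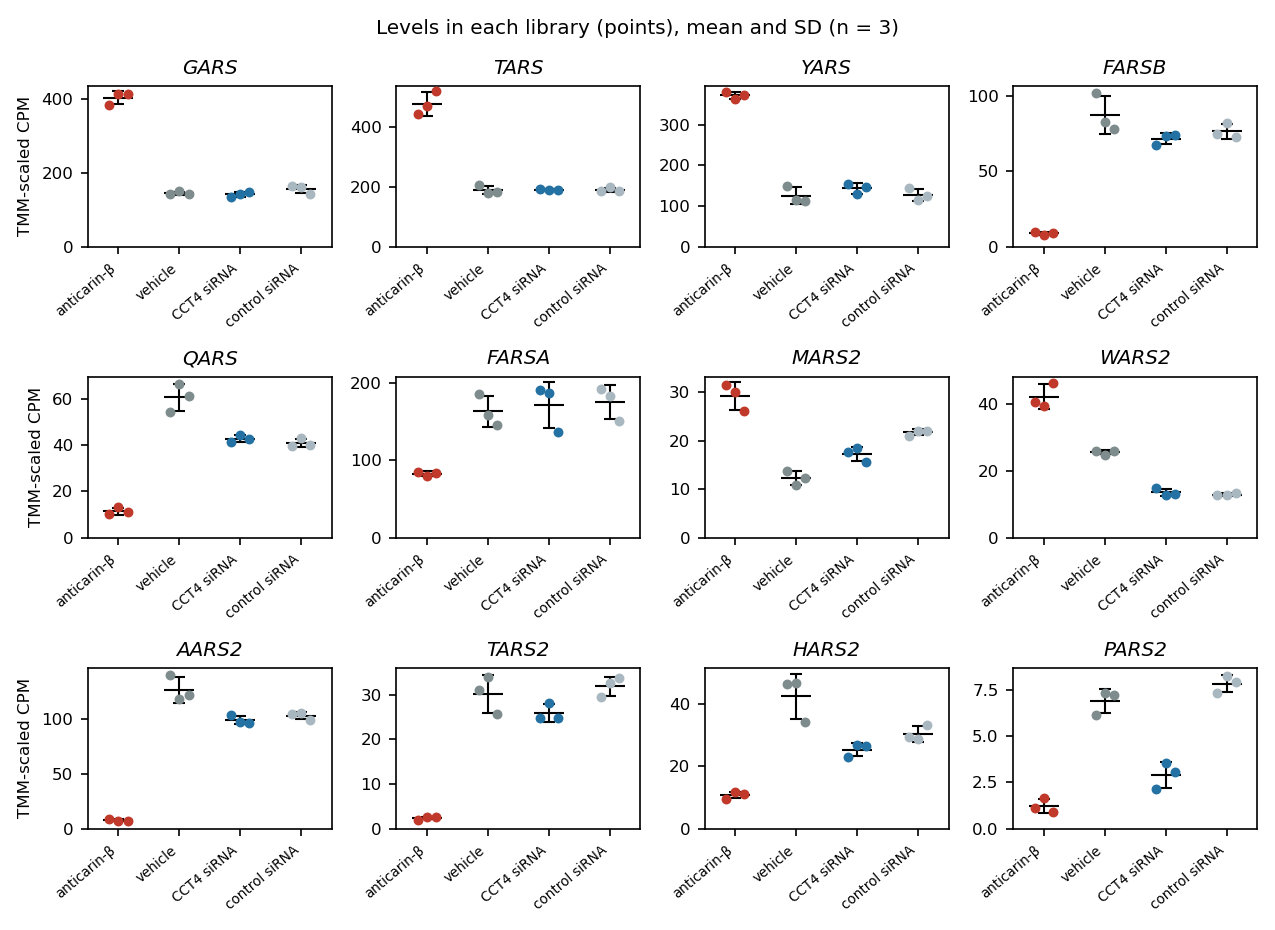
Scaled CPM (y axis, from 0) of 12 synthetase genes in each library, with points for libraries and bars for the mean and SD (n = 3). With anticarin-β, GARS, TARS, YARS, MARS2 and WARS2 lie above vehicle, and FARSB, QARS, FARSA, AARS2, TARS2, HARS2 and PARS2 below it. In the libraries labelled CCT4 siRNA, PARS2 lies at 2.16 to 3.54, below its control siRNA libraries at 7.37 to 8.30.

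By structural class, all 7 mitochondrial class II genes (AARS2, FARS2, HARS2, NARS2, PARS2, SARS2 and TARS2) fell, with a median log2 fold change of -1.98, while of the 9 mitochondrial class I genes 4 rose, 2 fell (IARS2 and VARS2) and 3 were not called, with a median of 0.05. Among the cytosolic genes, both classes held rises and falls: of 10 class II genes 5 rose and 4 fell, and of 10 class I genes 4 rose and 5 fell. The bifunctional EPRS, which fell, is counted in class I only. With library totals alone the mitochondrial class I genes were 4 higher and 4 lower (EARS2 and RARS2 in addition), the cytosolic class II genes 2 higher and 5 lower and the cytosolic class I genes 3 higher and 7 lower, while the 7 mitochondrial class II genes were called lower there too. These are counts over a few genes, set against 38.0% of all genes called lower, and no test was made of the classes.

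Setting a cytosolic gene beside the listed mitochondrial gene of the same amino acid holds the amino acid constant, and a ratio within a library does not depend on scaling. DARS, GARS, KARS and QARS had no such partner among the listed genes and are left out here. EPRS stands in the pairs with EARS2 and PARS2, and FARS2 in those with FARSA and FARSB, so the pairs are not all separate. The ratio was taken from counts + 0.5 divided by exon length. Of 17 pairs, its log2 value was higher with anticarin-β in 11 and lower in 6, with a median difference of 0.72. The libraries did not overlap in any pair. The levels of single genes did not overlap in 74.6% of all genes tested, and no such share was taken over ratios of other genes. The threonine pair moved the most: TARS over TARS2 had log2 ratios of 7.26, 6.99 and 7.18 with anticarin-β, against 2.24, 1.92 and 2.35 with vehicle. The alanine pair followed, with 4.47, 4.91 and 4.67 for AARS over AARS2 with anticarin-β, against 0.16, 0.35 and 0.32 with vehicle. At the other end, FARSB over FARS2 had 1.59, 1.18 and 1.63 with anticarin-β, against 3.16, 3.07 and 3.09 with vehicle. FARSA over FARS2 went the other way, with a difference of 0.72. IARS over IARS2 averaged 1.11 ± 0.07 with anticarin-β and -0.63 ± 0.05 with vehicle, so the cytosolic transcript was the more abundant per length in the treated cells and the mitochondrial one in the vehicle cells. RARS over RARS2 showed the opposite turn, at -0.32 ± 0.25 with anticarin-β and 0.92 ± 0.33 with vehicle.

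**Figure D3:**
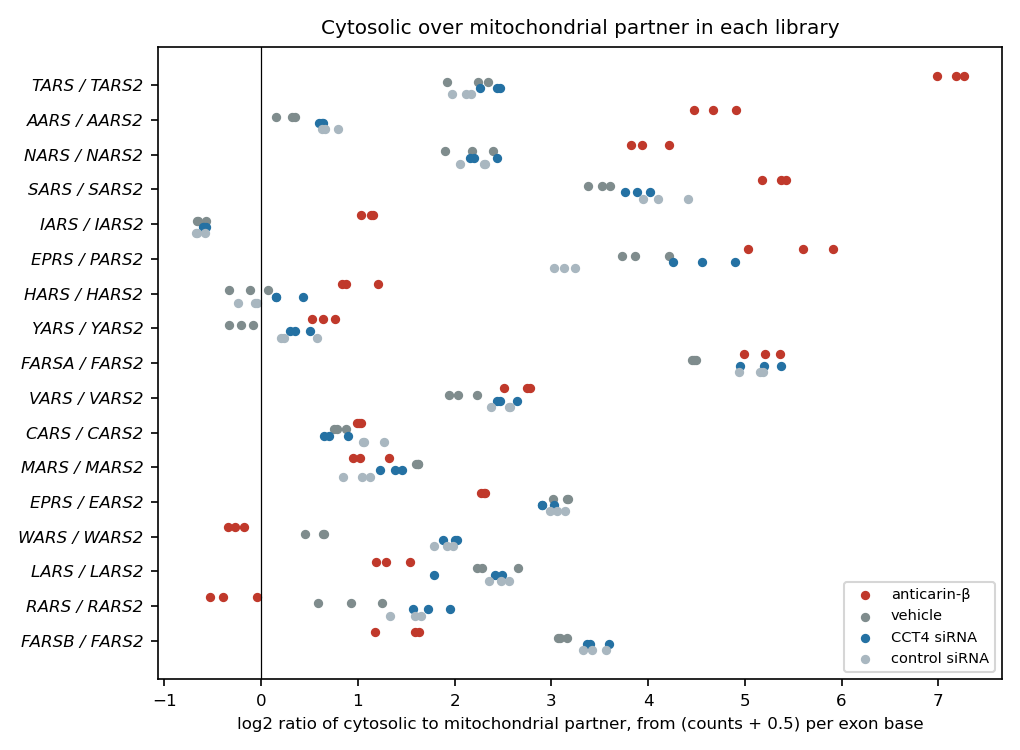
Log2 ratio of the cytosolic to the mitochondrial gene (x axis, counts + 0.5 per exon base) for 17 pairs of the same amino acid, with a point for each library and a colour for each group. The anticarin-β points lie to the right of vehicle in 11 pairs and to the left in 6, with the widest gap for TARS over TARS2. Most CCT4 siRNA points overlap control siRNA, with EPRS over PARS2 the widest exception.

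Summed over genes, the cytosolic synthetases held 1889 ± 26.8 TPM with anticarin-β and 1942 ± 143 TPM with vehicle (SD, n = 3 each), and these ranges overlapped. That overlap depends on GARS, which gives enzyme to both compartments and averaged 294 TPM with anticarin-β and 123 TPM with vehicle. Without GARS, each anticarin-β library would hold less cytosolic TPM than each vehicle library. The mitochondrial synthetases held 360.5 ± 1.34 TPM with anticarin-β and 680.3 ± 53.7 TPM with vehicle, without overlap. Their share of all synthetase TPM was 16.0% ± 0.178 with anticarin-β and 25.9% ± 0.186 with vehicle. The sums rest on a few abundant genes: the most abundant mitochondrial gene was YARS2 at 88.2 TPM with anticarin-β and IARS2 at 223 TPM with vehicle, while among the cytosolic genes it was GARS at 294 TPM with anticarin-β and FARSA at 238 TPM with vehicle. The transcripts of the 13 protein genes of the mitochondrial genome moved alongside, taking 0.734% ± 0.0594 of all counts with anticarin-β and 4.33% ± 0.165 with vehicle. The part of this in the TPM sums was not tested.

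**Figure D4:**
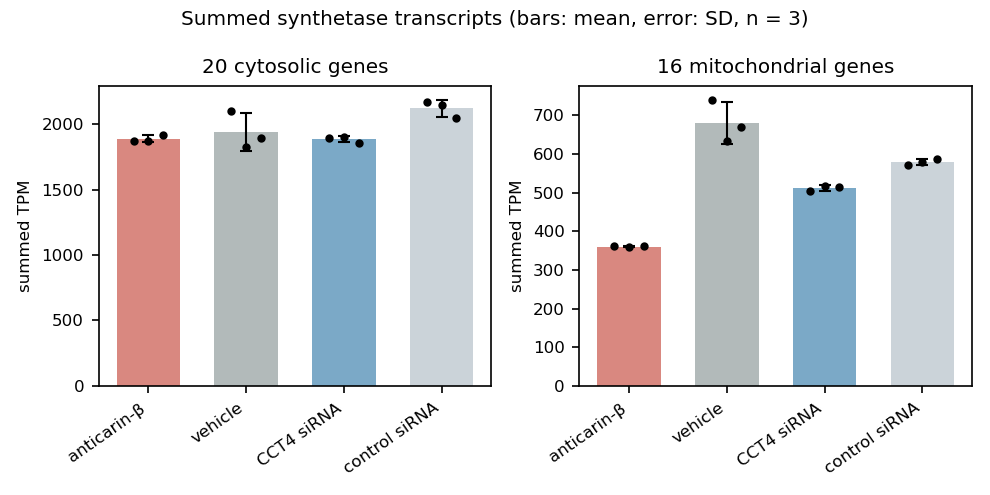
Summed TPM (y axis, from 0) of the 20 cytosolic genes (left) and 16 mitochondrial genes (right), with bars for means, error bars for SD (n = 3) and points for libraries. The mitochondrial sum is 360.5 with anticarin-β and 680.3 with vehicle, while the cytosolic sums, which include GARS, overlap at 1889 and 1942.

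Other genes of tRNA charging and translation were read from lists chosen for their function. Their counts stand beside 34.9% of all genes tested called higher and 38.0% called lower. Among 15 genes that handle tRNA or assist charging, 11 fell and 1 rose with anticarin-β, with a median of -0.86. The tRNA exporter XPOT (-1.50 ± 0.06), the D-aminoacyl-tRNA deacylase DTD1 (-1.89 ± 0.13) and SEPSECS, which makes selenocysteine on its tRNA (-3.26 ± 0.24), had the smallest p-values. PSTK, the kinase that acts before SEPSECS, was the one that rose (0.85 ± 0.18). Of the 3 scaffolds of the multi-synthetase complex, AIMP2 fell (-1.30 ± 0.18), EEF1E1 rose (0.30 ± 0.07, but with 0 of 3 scaffolds called higher under scaling by library totals alone) and AIMP1 was not called (-0.03).

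The cytosolic elongation factors changed less, with 1 of 5 higher (EEF1D, 0.88 ± 0.13) and 2 lower (EEF1B2, -0.41 ± 0.08, and EEF2, -0.18 ± 0.06). Of 10 mitochondrial translation factors 3 rose and 4 fell, with the initiation factor MTIF2 at -2.68 ± 0.12, the elongation factor GFM1 at 1.16 ± 0.08 and the release factor MTRF1L at 0.72 ± 0.08. Of 28 regulators and targets of ATF4, 16 rose and 10 fell, with a median of 0.54, against 34.9% of all genes called higher and 38.0% lower. With scaling by library totals alone 13 were higher and 12 lower. The smallest p-values belonged to PPP1R15A (4.07 ± 0.07) and PPP1R15B (3.10 ± 0.08), which direct the phosphatase of eIF2α, and to the amino acid transporter SLC7A1 (2.12 ± 0.07). ATF4 itself, singled out after its value was seen, rose by 1.42 ± 0.05. The largest falls of this list were those of PSPH (-2.66 ± 0.15) and DDIT4 (-2.65 ± 0.18).

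The transcript that the siRNA targets was not called lower. In the libraries labelled CCT4 siRNA, CCT4 had 201, 199.6 and 216 scaled CPM, against 186, 160.2 and 185 with control siRNA (0.22 ± 0.09, adjusted p = 0.129). With anticarin-β, CCT4 was at -1.52 relative to vehicle.

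In the libraries labelled CCT4 siRNA, few synthetases were called. No cytosolic gene was called by edgeR, while 4 of 20 had an unadjusted p under 0.05 (3 higher, 1 lower), and DESeq2 and limma-voom each called 1, KARS. Of the 16 mitochondrial genes 1 was called higher and 1 lower. Over all genes tested 19.7% were called, 10.7% higher and 9.04% lower (1892 and 1601 genes). Scaling by library totals alone moved the median of all genes to -0.12 and the calls to 902 higher and 2800 lower, and called 4 cytosolic genes lower. The cytosolic log2 fold changes ran from -0.14 to 0.25, with a median of -0.01, and the mitochondrial median was 0.01, against 0.01 for all genes. The groups did not overlap for 7 of 20 cytosolic and 7 of 16 mitochondrial genes, against 41.8% of all genes.

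PARS2 was the gene that fell. It had 2.16, 3.54 and 3.09 scaled CPM in the libraries labelled CCT4 siRNA, against 7.37, 8.30 and 7.93 with control siRNA. The groups were well apart, and the log2 fold change was -1.42 ± 0.20 (adjusted p = 0.000589, 2.68-fold lower). CARS2 rose, with 54.6, 51.2 and 47.3 scaled CPM in the libraries labelled CCT4 siRNA, against 36.4, 41.5 and 40.9 with control siRNA (0.37 ± 0.08, adjusted p = 0.00625). Exons of CARS2 overlap those of ING1 on the opposite strand, a gene with counts equal to 37.8% of those of CARS2, and its part in the rise was not tested. Both genes were called in the same direction with anticarin-β, and edgeR called no synthetase in opposite directions in the 2 comparisons, against 3.72% of all genes. Since edgeR's main run called no other synthetase with siRNA, only PARS2 and CARS2 could have had opposite calls there, and the count says little. DESeq2 (-0.34, adjusted p = 0.0423) and limma-voom (-0.33, adjusted p = 0.045) called MARS2 lower with siRNA. Both also called MARS2 with anticarin-β, where it rose, so its calls were opposite in those runs.

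KARS had 79.6, 78.8 and 88.6 scaled CPM in the libraries labelled CCT4 siRNA, against 70.7, 72.1 and 64.8 with control siRNA. The groups were apart but the adjusted p was 0.0501 (0.25 ± 0.08). KARS was called without vehicle library 1 or 3 (adjusted p = 0.0392 and 0.0415), which enter this comparison through the shared estimate of the spread, and so was VARS (0.23, adjusted p = 0.0952) without vehicle library 1 (adjusted p = 0.0276). GARS had 134, 142 and 149 scaled CPM in the libraries labelled CCT4 siRNA, against 165, 161 and 142 with control siRNA, which overlapped (-0.14, adjusted p = 0.199). MARS2 was at -0.33 (adjusted p = 0.0532), and was called without anticarin-β library 3 or vehicle library 1 or 2 (adjusted p down to 0.0384), while TARS2 was at -0.30 (adjusted p = 0.0917). With edgeR, MARS2 was also called lower with upper-quartile scaling (adjusted p = 0.0391), each experiment alone (0.0311) and library totals alone (0.0138). TARS2 was called lower with each experiment alone (adjusted p = 0.0398) and library totals alone (0.0210). FARSB and QARS, which fell with anticarin-β, were at -0.10 and 0.06 here, and AARS2 at -0.06.

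Among the 17 pairs, the cytosolic to mitochondrial ratio was higher without overlap in 4 (EPRS over PARS2, HARS over HARS2, MARS over MARS2 and TARS over TARS2), lower without overlap in 1 (CARS over CARS2) and overlapping in 12. The levels of single genes did not overlap in 41.8% of all genes tested, and no such share was taken over ratios of other genes. EPRS over PARS2 had log2 ratios of 4.90, 4.25 and 4.55 in the libraries labelled CCT4 siRNA, against 3.24, 3.13 and 3.02 with control siRNA. Summed TPM, which keeps library totals, was lower for both compartments without overlap. The cytosolic genes summed to 1896, 1899 and 1858 TPM in the libraries labelled CCT4 siRNA, against 2167, 2147 and 2050.5 TPM with control siRNA. The mitochondrial genes summed to 503, 517 and 514 TPM in the libraries labelled CCT4 siRNA, against 573, 579 and 587 TPM with control siRNA. The mitochondrial share of synthetase TPM was 21.3% ± 0.353 in the libraries labelled CCT4 siRNA and 21.5% ± 0.706 with control siRNA, while the 13 mitochondrial genome transcripts took 1.02% ± 0.0056 of all counts in the libraries labelled CCT4 siRNA and 1.68% ± 0.0623 with control siRNA.

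Of the other lists, the scaffolds AIMP1, EEF1E1 and AIMP2 were at -0.02, -0.01 and 0.03 in the siRNA comparison. The counts that follow stand beside 10.7% of all genes tested called higher and 9.04% called lower. Of the 15 charging genes 1 rose (DTD1, 0.43 ± 0.12) and 1 fell (SEPSECS, -0.70 ± 0.18). The elongation factors EEF2 (0.50 ± 0.06), EEF1G (0.51 ± 0.13) and EEF1A1 (0.30 ± 0.10) rose, and so did the mitochondrial TUFM (0.28 ± 0.07) and GFM1 (0.31 ± 0.08). With scaling by library totals alone, 2 elongation factors and 0 mitochondrial factors were called higher. Of the 28 ATF4 regulators and targets 9 rose and 4 fell, with PPP1R15A (1.57 ± 0.06), PPP1R15B (0.74 ± 0.07) and CEBPB (0.75 ± 0.09) at the smallest p-values, though scaling by library totals alone gave 4 higher and 8 lower.

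The responses were then compared with each other by testing the anticarin-β change minus the CCT4 siRNA change, bearing in mind that time, agent and control differ between the experiments. The difference was called for 17 of 20 cytosolic genes, 8 higher and 9 lower, and for 13 of 16 mitochondrial genes, 4 higher and 9 lower, against 59.9% of all genes (27.5% higher, 32.4% lower, or 4866 and 5744 genes, which became 3724 and 7283 with scaling by library totals alone). AARS2 had the lowest difference (-4.01 ± 0.14, adjusted p = 6.44e-10) and GARS the highest (1.63 ± 0.10, adjusted p = 4.02e-08). For PARS2, which fell in both comparisons, the difference was -1.08 ± 0.32 (adjusted p = 0.0101), and for CARS2, which rose in both, it was 0.40 ± 0.11 (adjusted p = 0.00579). With library totals alone the CARS2 difference was 0.12 (adjusted p = 0.355), and AARS (0.18, adjusted p = 0.0919) and YARS2 (0.30, adjusted p = 0.157) also lost their calls. MARS2 differed by 1.58 ± 0.16 (adjusted p = 2.39e-06). The genes not called were IARS, KARS, WARS, EARS2, LARS2 and RARS2, with intervals from -0.77 to 0.61 between them. Library totals alone called IARS (-0.26, adjusted p = 0.0303), KARS (-0.45, 0.00552), WARS (-0.56, 0.00341) and EARS2 (-0.50, 0.00215) lower. Upper-quartile scaling called WARS (adjusted p = 0.0304) and EARS2 (0.0311) lower, and WARS was also called lower without vehicle library 2 (0.0246). The call of NARS (0.32 ± 0.12, adjusted p = 0.0300) was lost without library 2 or 3 of anticarin-β, CCT4 siRNA or control siRNA, or without vehicle library 2, with an adjusted p up to 0.0774. It was also lost with no low-count filter (adjusted p = 0.0842), upper-quartile scaling (0.0936) and library totals alone (0.03, adjusted p = 0.814).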

How the data were processed

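Total RNA of 12 MG63 samples was sequenced from stranded TruSeq libraries, per the labels' protocols. The deposited table holds raw read counts per gene from the authors. Reads were mapped to hg38 with STAR 2.5.2a and counted with featureCounts 1.5.0 of Subread, per the submitters' processing notes. No source used here gives the strand setting, the annotation release or the rule for multi-mapping reads. From the counts, genes were filtered with filterByExpr, scaled by TMM and tested in edgeR 4.0.16 (R 4.3.3) with 4 group means over all 12 libraries, leaving 8 residual degrees of freedom before shrinkage, with a prior count of 0.125. Adjusted p-values follow Benjamini-Hochberg over all 17717 genes tested. Alternatives used DESeq2 1.42.0, limma-voom 3.58.1, other scalings and filters, each experiment alone, the replicate number as a block, and each library left out. The procedure was tested on simulated data in which few genes changed, balanced up and down. That test cannot judge the scaling where most genes change, as with anticarin-β. TPM used exon lengths from GENCODE 29, which holds 98.5% of the gene IDs, and partner ratios used counts + 0.5 divided by exon length. TPM keeps library totals and is not scaled by TMM. Replicate libraries differed by more than sampling noise (chi-square per degree of freedom 8.48 to 26.5). A floor of 3 counts corresponds to 0.172 to 0.224 unscaled CPM and covers counting error only. Libraries with the same replicate number did not deviate together (r from -0.03 to 0.03), which gives no sign of pairing but cannot exclude it. The main fit does not pair them.

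The members and lists were chosen with earlier results of these data known, and the motifs were chosen after the calls were seen. Values in every library are given for the 4 highest and 4 lowest called genes of each class with anticarin-β, for the genes called with siRNA, and for GARS, KARS, FARSA and FARSB. Of the other lists, up to 3 genes with the smallest p are named, and PSTK, ATF4, DDIT3, PSPH and DDIT4 besides.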

Additional observations from a re-analysis of the deposited data

How the results depend on the processing

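Of the 36 genes, 27 kept their side of the threshold in every alternative run for anticarin-β. The number was 28 for CCT4 siRNA and 27 for the difference of the responses. Those that were called also kept their direction. A change of sign in a gene called in neither run was not counted. As libraries were left out in turn, FARSA ran from -0.13 to 0.11 with siRNA, and LARS2 from -0.15 to 0.20 with anticarin-β. Scaling mattered most. With library totals alone the anticarin-β values were -0.082 for AARS, -0.25 for IARS, -0.33 for KARS and -0.13 for NARS, and IARS was at -0.26 in the difference. That scaling called 5 cytosolic genes higher with anticarin-β, 4 cytosolic genes (AARS, DARS, GARS and SARS) and 3 mitochondrial genes lower with siRNA, and 2 mitochondrial genes higher in the difference, where CARS2 and YARS2 lost their calls. Its medians were -0.44 (cytosolic) and -1.46 (mitochondrial) with anticarin-β, -0.14 and -0.13 with siRNA, and -0.51 and -1.35 in the difference. With upper-quartile scaling, which moved the median of all genes with anticarin-β to -0.18, the medians were -0.14 and -1.16 with anticarin-β and -0.31 and -1.15 in the difference, and 2 mitochondrial genes were lower with siRNA. RLE scaling and DESeq2 gave a mitochondrial median of -0.98 with anticarin-β, and -0.15 and -0.99 in the difference. For siRNA, DESeq2, limma-voom, each experiment alone and the filter of 1 CPM in 3 libraries each called 1 cytosolic gene higher, KARS, and DESeq2 and limma-voom called 2 mitochondrial genes lower, and each experiment alone 3. The cause of these shifts was not tested. Leaving out each library in turn gave mitochondrial medians from -1.16 to -0.97 with anticarin-β, from -1.15 to -0.96 in the difference and from -0.01 to 0.02 with siRNA. Cytosolic medians ran from -0.09 to 0.01, from -0.28 to -0.19 and from -0.033 to 0.035 in that order of comparisons. Called counts ran from 0 to 2 cytosolic genes higher and 1 to 2 mitochondrial genes lower with siRNA. With the replicate block IARS was the synthetase that lost its call with anticarin-β (adjusted p = 0.0565). Over all genes the block called 6048 higher and 6589 lower with anticarin-β, and 1300 higher and 1050 lower with siRNA. Partner ratios without the pseudocount stayed within the spread between libraries for all 34 values. With 3 libraries a group, PARS2, at 11 counts in its lowest library, has the least depth.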
